A study of Mus musculus with 12 samples.

Results

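The expression of 9 genes that neurons switch on within minutes of activity was followed in hippocampus and cerebellum of mice labelled as Syt14 knockouts and of wild-type mice: Egr1, Egr2, Egr3, Egr4, Arc, Npas4, Ier2, Ier5 and Btg2. These 9 of the 54446 genes in the count tables were chosen by name, as activity-induced genes outside the AP-1 and Nr4a families. The choice was made with earlier results of these data known. Each gene was found once in both tables by its Ensembl identifier. Poly(A) RNA was sequenced in 4 groups of 3 libraries: hippocampus of Syt14 knockout (SYT14-KO, Syt14-/-) mice, hippocampus of wild-type (WT, Syt14+/+) mice, cerebellum of knockout mice and cerebellum of wild-type mice. The 3 animals of each genotype gave both tissues, so the 12 libraries come from 6 animals. The study asks about the function of Syt14, a synaptotagmin gene whose protein family acts in membrane traffic, in mood disorder and motor coordination. Which part of Syt14 was altered, and the strain, age and any stimulation of the mice, the labels used here do not say.

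Rapid activity genes need no new protein for their transcription. Calcium entry and growth factor signals reach the transcription factors CREB, SRF and the ternary complex factors bound to their DNA, and the mRNAs are then made and degraded quickly, so that their level at death follows recent activity, arousal and handling. Egr1 to Egr4 are zinc finger transcription factors that bind GC-rich sites, and in the hippocampus Egr1 is a standard marker of active neurons. Egr2 is also needed for hindbrain segmentation and for myelination by Schwann cells. Arc is a cytoskeletal protein that promotes the removal of AMPA receptors from synapses and whose mRNA travels into dendrites. Npas4 is a bHLH-PAS transcription factor that responds to calcium entry and regulates inhibitory synapses. Ier2 and Ier5 are small nuclear proteins, and in human cells IER5 brings the phosphatase PP2A to the heat shock factor HSF1. Btg2 is an antiproliferative protein that binds the CCR4-NOT deadenylase, the complex that shortens poly(A) tails.

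All 9 genes are annotated as protein coding and no other annotated gene overlaps any of them in GRCm38. Egr1 lies on chromosome 18 (34859823 to 34864984, plus strand), Egr2 on chromosome 10 (67535475 to 67542188, plus), Egr3 on chromosome 14 (70077203 to 70082614, plus) and Egr4 on chromosome 6 (85511121 to 85513589, minus). Arc lies on chromosome 15 (74669083 to 74672570, minus), Npas4 on chromosome 19 (4984355 to 4990316, minus) and Ier2 on chromosome 8 (84661331 to 84662852, minus). Ier5 (155096361 to 155099636, minus) and Btg2 (134075170 to 134079120, minus) both lie on chromosome 1. Their exons cover 1522 bases in Ier2, the shortest, to 4484 bases in Egr1, the longest.

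The libraries held 24355572 to 34971359 counts. Syt14 was read at 28.9, 27.9 and 30.5 CPM in knockout hippocampus, against 38.6, 38.9 and 38.1 CPM in wild-type hippocampus, and at 30.5, 30.6 and 30.3 CPM in knockout cerebellum, against 33.7, 33.7 and 38.3 CPM in wild-type cerebellum. Every knockout library lay below every wild-type library of its tissue, but the mRNA was still there at 76.1% and 86.9% of the wild-type level. The log2 fold changes were -0.39 ± 0.06 (SE) in hippocampus and -0.20 ± 0.06 in cerebellum. In edgeR's quasi-likelihood test the unadjusted p were 3.88e-05 and 0.00897, and the adjusted p were 0.686 and 0.644. None of the 9 genes followed here had as small an unadjusted p in hippocampus. CPM are the counts of a gene relative to the total of its library, here scaled by TMM factors over all 12 libraries. The tissue labels matched their markers: 7 genes of cerebellar granule and Purkinje cells summed to 153 to 197 CPM in the hippocampus libraries and 4890 to 5594 CPM in the cerebellum libraries. The 7 genes of hippocampal excitatory neurons summed to 896 to 989 CPM in the hippocampus libraries and at most 305 CPM in the cerebellum libraries. In tissue RNA, fewer cells of a type and less RNA per cell cannot be told apart. The table headers carry the tag L1 for all hippocampus libraries and L4 for all cerebellum libraries, so the tissues and whatever the tag stands for cannot be told apart.

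The promoters of the members are shown because the genes tended to move together between animals and because CREB and SRF are the classical regulators of such genes. RefSeq windows of GRCm38.p6, from 250 bases before to 50 bases after the annotated start, were at hand for 5 of the 9 members. They are printed 5′ to 3′ on the gene's strand. Capitals mark the cyclic AMP response element (CRE, TGACGTCA, the site of CREB), its short form TGACG on either strand, and the CArG box, the site of SRF. Positions count from 0 at the annotated start.
Btg2 (chr1:134079106-134079405, minus strand): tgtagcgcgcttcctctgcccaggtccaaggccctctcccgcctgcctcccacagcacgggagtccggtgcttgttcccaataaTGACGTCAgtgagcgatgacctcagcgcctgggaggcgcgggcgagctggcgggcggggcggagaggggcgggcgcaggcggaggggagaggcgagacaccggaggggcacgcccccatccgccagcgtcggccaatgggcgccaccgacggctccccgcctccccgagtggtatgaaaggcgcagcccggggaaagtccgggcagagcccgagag
Npas4 (chr19:4989922-4990221, minus strand): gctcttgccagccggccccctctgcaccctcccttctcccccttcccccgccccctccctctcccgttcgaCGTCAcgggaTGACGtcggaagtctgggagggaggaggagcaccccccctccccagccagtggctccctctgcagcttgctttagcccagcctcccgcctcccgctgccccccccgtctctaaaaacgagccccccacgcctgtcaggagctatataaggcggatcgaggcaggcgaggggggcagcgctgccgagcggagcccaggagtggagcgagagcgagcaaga
Egr4 (chr6:85513540-85513839, minus strand): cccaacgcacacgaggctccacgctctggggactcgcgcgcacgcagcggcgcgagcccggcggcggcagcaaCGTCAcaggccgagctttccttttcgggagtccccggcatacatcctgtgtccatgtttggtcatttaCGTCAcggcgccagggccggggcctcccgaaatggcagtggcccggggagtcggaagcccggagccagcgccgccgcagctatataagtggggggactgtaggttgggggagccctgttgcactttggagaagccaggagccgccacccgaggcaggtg
Egr2 (chr10:67537680-67537979, plus strand): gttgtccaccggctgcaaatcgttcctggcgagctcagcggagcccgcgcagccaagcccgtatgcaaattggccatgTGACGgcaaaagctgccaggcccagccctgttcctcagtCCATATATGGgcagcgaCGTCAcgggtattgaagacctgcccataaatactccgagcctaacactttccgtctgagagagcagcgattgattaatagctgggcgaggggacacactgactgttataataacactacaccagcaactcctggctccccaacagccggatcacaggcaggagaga
Ier5 (chr1:155099587-155099886, minus strand): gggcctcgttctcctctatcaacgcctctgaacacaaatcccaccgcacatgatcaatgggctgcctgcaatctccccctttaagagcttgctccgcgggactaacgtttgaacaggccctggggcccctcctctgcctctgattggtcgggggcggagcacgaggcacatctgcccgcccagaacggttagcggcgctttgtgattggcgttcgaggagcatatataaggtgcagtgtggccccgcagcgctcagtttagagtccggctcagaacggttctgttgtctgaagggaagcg

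The full CRE stood once in the Btg2 window, starting at -166. It occurs in 1.79% of the 32851 windows of all genes, searched on both strands. The short form alone stood at -179 and -169 in the Npas4 window and at -177 and -109 in the Egr4 window, and 20.8% of all windows hold it. The Egr2 window had it at -172 and -116, on both sides of a CArG box starting at -133, a motif in 1.63% of all windows. Of the 5 windows RefSeq gives for Egr2, the one shown holds all the marked sites of the 2 that overlap it most, and the most upstream of the 5 has none. The Ier5 window has neither motif, which says only that these letters are not in it. The Egr binding site GCGNGGGCG stood in the Btg2 window at -131 and in none of the other windows shown, against 5.55% of all windows.

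Of the 9 genes, 7 were higher in hippocampus than in cerebellum in both genotypes, Ier2 was lower, and Btg2 did not pass the test. The tissue comparison called 8 of 9 members at an adjusted p under 0.05 in knockout and in wild-type mice, with edgeR's quasi-likelihood test and Benjamini-Hochberg adjustment over all genes. These fits did not pair the tissues of an animal. With the animal added to the fit, no call of a member changed. The tissues differed widely in general: 64.1% of 18200 genes were called in knockout mice (31.6% higher and 32.5% lower in hippocampus) and 66.1% of 18128 in wild-type mice (33.1% higher and 33% lower). A call by itself is therefore common, and the sizes below carry the description.

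Egr3 had the steepest tissue difference of the 8 members with enough counts for a fold. It was read at 126, 121 and 133 CPM in knockout hippocampus and 1.47, 0.409 and 1.66 CPM in knockout cerebellum. In wild-type mice it was read at 125, 123 and 132 CPM in hippocampus and 0.633, 0.544 and 0.396 CPM in cerebellum. Its hippocampal level was thus almost the same in all 6 animals, while its cerebellar level rested on 12 to 50 counts a library. The log2 fold change of hippocampus over cerebellum was 6.75 ± 0.21 (SE) in knockout mice, or 107-fold with a 95% interval of 77.7 to 148, and 7.93 ± 0.10 in wild-type mice, or 244-fold with an interval of 211 to 284. The adjusted p were 5.80e-09 and 5.07e-15.

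Egr2 was the scarcest member. It was read at 4.32, 3.88 and 7.21 CPM in knockout hippocampus and by 2, 4 and 9 counts in knockout cerebellum. Wild-type hippocampus had 1.66, 1.90 and 4.80 CPM, and wild-type cerebellum had 2, 0 and 0 counts. A count of 0 allows up to 3 counts, or 0.0858 and 0.0944 CPM in those 2 libraries. Summed over libraries the hippocampus to cerebellum ratio was 30.0 in knockout mice (424 against 15 counts, 95% exact interval 18.0 to 54.2) and 132 in wild-type mice (214 against 2 counts, interval 36.0 to 1095). These intervals cover counting error only.

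Egr1 had the highest mean level per length of the 4 Egr mRNAs in all groups, although its range overlapped that of Egr3 in wild-type hippocampus. It was read at 158, 146 and 204 CPM in knockout hippocampus and 37.6, 35.3 and 52.8 CPM in knockout cerebellum. Wild-type mice had 140, 108 and 175 CPM in hippocampus and 43.8, 40.8 and 67.8 CPM in cerebellum. The tissues did not overlap in either genotype. The hippocampus was 4.05-fold higher in knockout mice (interval 3.15 to 5.20, adjusted p = 3.37e-06) and 2.78-fold higher in wild-type mice (interval 2.11 to 3.68, adjusted p = 1.27e-05). Egr4 had 38.9, 32.6 and 43.2 CPM in knockout hippocampus and 8.19, 7.73 and 9.92 CPM in knockout cerebellum. Its wild-type values were 27.0, 24.1 and 34.0 CPM in hippocampus and 8.03, 6.83 and 8.65 CPM in cerebellum. That made it 4.44-fold higher in hippocampus in knockout mice and 3.65-fold in wild-type mice.

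The make-up of the Egr family therefore differed between the tissues. Per kilobase of annotated exons, the 4 Egr mRNAs summed to 85.9 ± 11.0 CPM in knockout hippocampus and 13.7 ± 2.80 CPM in knockout cerebellum (SD, n = 3), and to 74.2 ± 11.3 CPM in wild-type hippocampus and 15.1 ± 3.64 CPM in wild-type cerebellum. Egr3 made up 33.7% of that sum in knockout hippocampus and 1.90% in knockout cerebellum. In wild-type mice it made up 39.2% in hippocampus and 0.838% in cerebellum. Egr1 made up 43.8% in knockout hippocampus, 68.2% in knockout cerebellum, 42.0% in wild-type hippocampus and 74.5% in wild-type cerebellum. Egr4 made up 20.7, 29.6, 17.8 and 24.6% in the same 4 groups. Its share was higher in cerebellum than in hippocampus in both genotypes, with ranges that did not overlap.

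Arc was the member with the highest level per length in hippocampus. It was read at 151, 129 and 222 CPM in knockout hippocampus and 23.7, 20.3 and 22.8 CPM in knockout cerebellum. In wild-type mice the values were 119, 95.3 and 164 CPM in hippocampus and 21.3, 21.8 and 25.7 CPM in cerebellum. The cerebellar values lay close together and the hippocampal ones spread widely between animals. The hippocampus was 7.51-fold higher in knockout mice (log2 interval 2.50 to 3.32, adjusted p = 6.18e-07) and 5.53-fold higher in wild-type mice (interval 4.35 to 7.03, adjusted p = 1.95e-08).

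Npas4, whose transcription in neurons depends closely on calcium entry, had 14.9, 11.1 and 18.3 CPM in knockout hippocampus and 6.39, 4.67 and 4.74 CPM in knockout cerebellum. Wild-type mice had 10.8, 7.95 and 23.8 CPM in hippocampus and 1.94, 2.50 and 4.81 CPM in cerebellum. The third wild-type animal was highest in both tissues. The hippocampus was 2.81-fold higher in knockout mice (adjusted p = 1.13e-04) and 4.56-fold higher in wild-type mice (adjusted p = 2.53e-04).

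Ier2 was the member that ran the other way. It was read at 6.90, 6.45 and 9.78 CPM in knockout hippocampus, against 17.7, 18.5 and 22.0 CPM in knockout cerebellum, and at 6.23, 5.74 and 10.03 CPM in wild-type hippocampus, against 16.9, 14.0 and 23.4 CPM in wild-type cerebellum. Every cerebellum library lay above every hippocampus library. Its hippocampal level was 39.9% of the cerebellar one in knockout mice (adjusted p = 4.93e-05) and 40.8% in wild-type mice (adjusted p = 1.55e-04). Ier5, by contrast, was higher in hippocampus. It had 45.4, 45.5 and 57.4 CPM in knockout hippocampus against 19.7, 18.6 and 18.4 CPM in knockout cerebellum, and 52.3, 46.8 and 54.6 CPM in wild-type hippocampus against 22.9, 20.6 and 24.4 CPM in wild-type cerebellum. The folds were 2.62 in knockout mice and 2.27 in wild-type mice.

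Btg2 had similar levels in both tissues. It was read at 17.5, 15.1 and 21.8 CPM in knockout hippocampus and 18.1, 19.0 and 22.4 CPM in knockout cerebellum. In wild-type mice it had 14.5, 14.6 and 34.5 CPM in hippocampus and 17.5, 17.5 and 22.1 CPM in cerebellum. The third wild-type hippocampus library stood at 2.37 times the mean of the other two. The log2 fold change was -0.13 ± 0.13 in knockout mice (adjusted p = 0.423) and 0.16 ± 0.26 in wild-type mice (adjusted p = 0.607), with intervals of -0.43 to 0.17 and -0.41 to 0.73. Without that library the wild-type value was -0.38 and passed the test (adjusted p = 0.0174), so the direction in wild-type mice turned on 1 library.

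**Figure D1:**
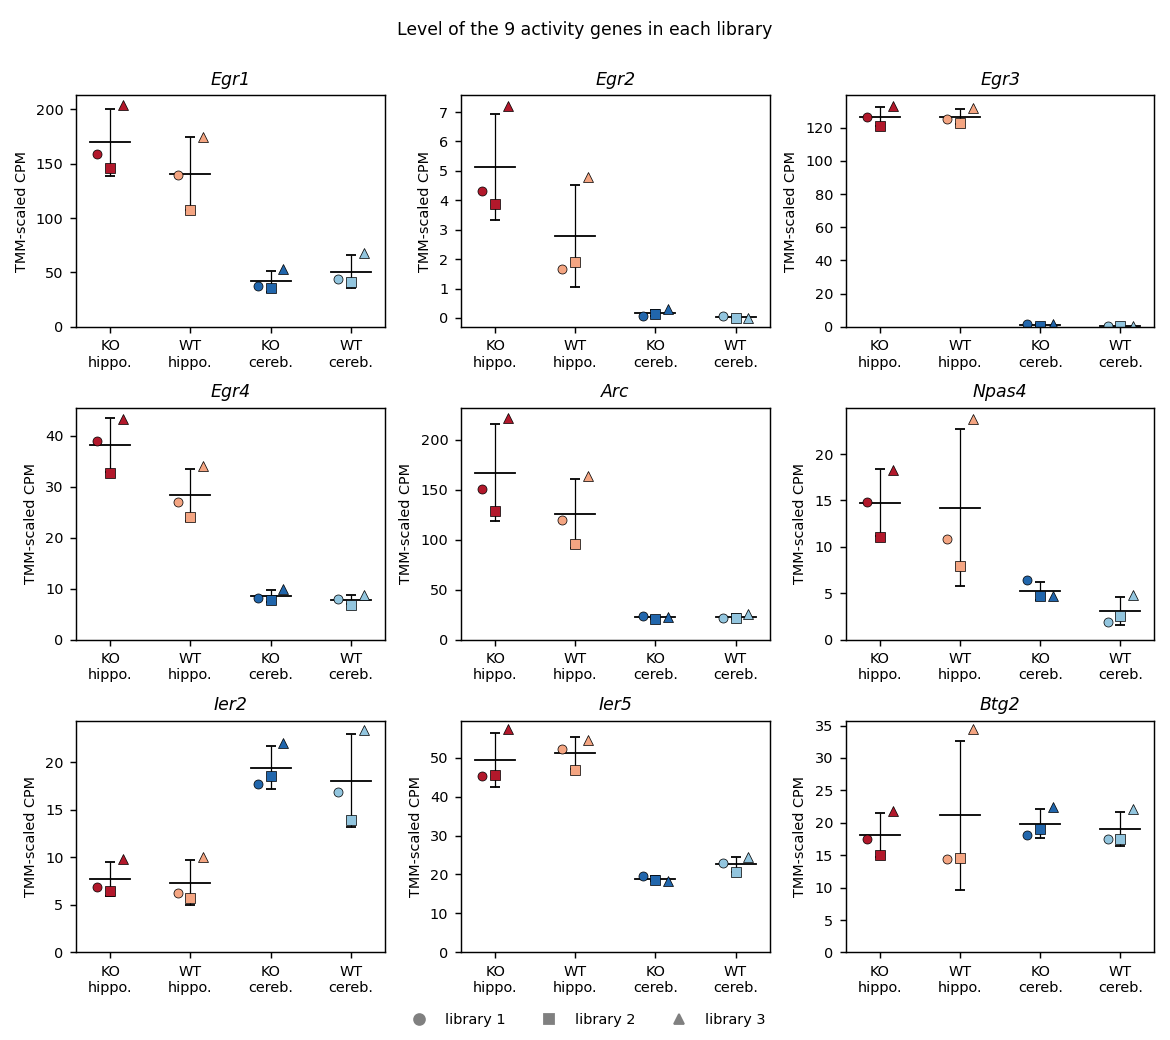
TMM-scaled CPM (linear axes that start at or just below 0) of the 9 genes in each of the 12 libraries. Points are libraries, with a marker shape for the replicate number, and the bars show the mean and SD of the 3 libraries of a group. In all, 7 genes lie higher in hippocampus, Ier2 lies lower there, and Btg2 lies level apart from 1 wild-type hippocampus library at 34.5 CPM.

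**Figure D2:**
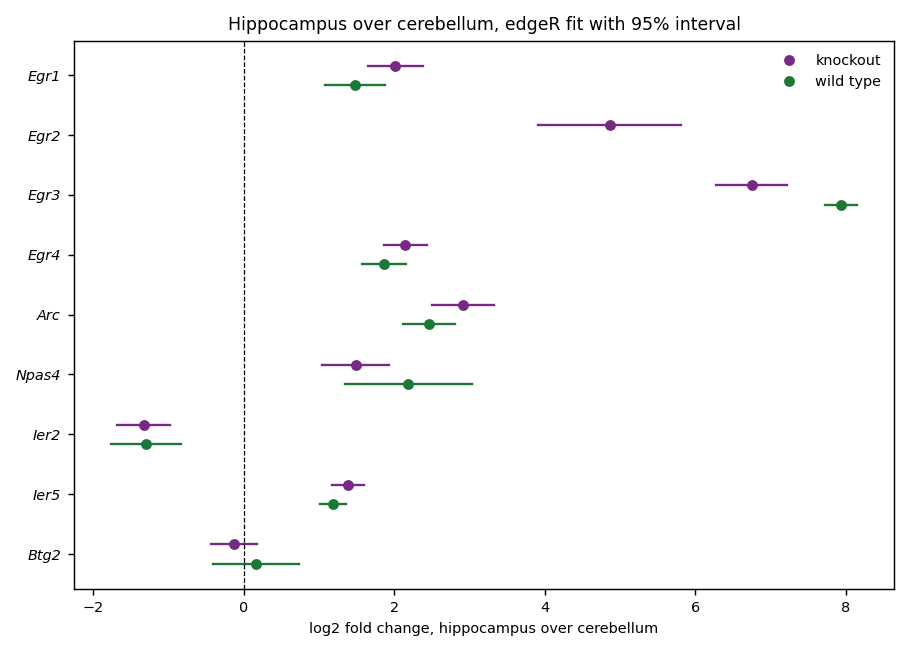
Log2 fold change of hippocampus over cerebellum for each gene in knockout and wild-type mice, with 95% intervals of the edgeR fit. Egr2 in wild-type mice is left out because it rests on 2 counts in the cerebellum. Egr3 lies at 6.75 and 7.93, Ier2 at -1.33 and -1.29, and both Btg2 intervals include 0.

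Ordered by CPM per kilobase, the genes formed different rankings in the tissues. In knockout hippocampus Arc led with 54.6 ± 15.9, then Egr1 with 37.8 ± 6.86, Egr3 with 28.8 ± 1.36, Egr4 with 17.8 ± 2.47, Ier5 with 15.1 ± 2.10, Btg2 with 6.62 ± 1.23, Ier2 with 5.07 ± 1.19, Npas4 with 3.57 ± 0.88 and Egr2 with 1.51 ± 0.53 (SD, n = 3). The ranges of Arc and Egr1 overlapped, as did those of Egr4 and Ier5, of Btg2 and Ier2, and of Ier2 and Npas4. In wild-type hippocampus the order was the same except that Ier5 (15.6 ± 1.23) stood before Egr4 (13.2 ± 2.36), and the ranges of neighbours overlapped except between Egr3 and Ier5 and between Npas4 and Egr2. In knockout cerebellum Ier2 led with 12.7 ± 1.48, then Egr1 with 9.35 ± 2.12, Arc with 7.28 ± 0.59, Btg2 with 7.24 ± 0.82, Ier5 with 5.77 ± 0.20, Egr4 with 4.01 ± 0.54, Npas4 with 1.27 ± 0.24, Egr3 with 0.27 ± 0.15 and Egr2 with 0.050 ± 0.034. The wild-type cerebellum had the same order. Ier2 and Egr1 overlapped in both genotypes, as did Arc and Btg2.

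The knockout left no member past the threshold in the hippocampus. Egr4, Arc, Egr1 and Egr2 had the highest values relative to wild type, Egr3 was level, and Ier5 and Btg2 were slightly below 0. None of the 9 members passed an adjusted p of 0.05 in edgeR's quasi-likelihood test, and the share of all 17693 genes called was 0%. At an unadjusted p under 0.05 there were 2 of 9 members, Egr4 and Egr2, against 4.34% of all genes. Because the members were chosen with earlier results of these data known, such shares, here and below, only describe them. DESeq2 and limma-voom called 0 members as well. Without a filter on low counts edgeR called 4 members, and with the replicate number as a block it called 1, as given at the end. The ranges of knockout and wild-type libraries overlapped for all 9 members, where 10.2% of all genes did not overlap.

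Egr4 had the smallest p of the members. The knockout hippocampi held 38.9, 32.6 and 43.2 CPM and the wild-type hippocampi 27.0, 24.1 and 34.0 CPM, so that the lowest knockout library lay just under the highest wild-type library. The log2 fold change was 0.44 ± 0.12 (SE, unadjusted p = 0.00355 in edgeR's quasi-likelihood test, adjusted p = 0.995), the 43rd smallest p of all genes tested. Leaving out single libraries moved it between 0.34 and 0.59. Arc averaged 167 ± 48.5 CPM in knockout and 126 ± 34.8 CPM in wild-type hippocampus (SD, n = 3 each), a log2 fold change of 0.42 ± 0.19 (adjusted p = 0.995). Egr1 averaged 170 ± 30.8 CPM in knockout and 141 ± 33.6 CPM in wild-type hippocampus, a log2 fold change of 0.28 ± 0.15 (adjusted p = 0.995). Egr2 averaged 5.13 ± 1.81 CPM in knockout and 2.79 ± 1.75 CPM in wild-type hippocampus, a log2 fold change of 0.90 ± 0.36 (adjusted p = 0.995). With single libraries left out, the log2 fold change ran from 0.16 (without the third knockout library) to 0.65 for Arc, from 0.12 (without the second wild-type library) to 0.47 for Egr1 and from 0.57 (without the third knockout library) to 1.54 for Egr2. The highest value of each came without the third wild-type library.

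The remaining members were nearer to 0 or poorly bounded. Egr3 gave the tightest bound of the 9: its log2 fold change was 0.01 ± 0.05, with an interval of -0.09 to 0.12, so a change of 1.09-fold or more upwards lay outside it. Ier5 was also tightly bounded at -0.04 ± 0.09 (interval -0.23 to 0.16). Npas4 at 0.07 ± 0.31, Ier2 at 0.09 ± 0.21 and Btg2 at -0.21 ± 0.27 had wide intervals, of which the widest, for Npas4, ran from -0.61 to 0.75. Btg2 and Npas4 were pulled by the third wild-type animal: without that hippocampus library Btg2 stood at 0.33 and Npas4 at 0.67. Over the 9 members the median log2 fold change was 0.087, with 7 above 0, against a median of 0.0017 and 50.8% above 0 over all genes.

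Markers of other cells differed between the hippocampus libraries. The 10 meningeal and fibroblast markers summed to 85.9, 91.9 and 78.9 CPM in knockout libraries and 98.5, 170 and 91.1 CPM in wild-type libraries, and 9 of the 10 had a log2 fold change below 0. The 9 endothelial and pericyte markers summed to 223 to 261 CPM in knockout and 271 to 305 CPM in wild-type libraries. All markers of both lists were detected in every group, and none was called. The second library had the highest meningeal sum of each genotype. It was also the lowest of its group for 8 of the 9 members in knockout and 7 of the 9 in wild-type hippocampus. The second library was the lowest for 5 of 9 in knockout cerebellum and 6 of 9 in wild-type cerebellum too. For the lowest library the share over all genes was not counted. With the marker score as a covariate no member was called, and the values of Npas4, Ier2 and Egr3 lay below 0. The log2 fold change of Egr1 was then 0.12 and that of Arc 0.28, and the median of the 8 members tested in both tissues was -0.026. The part of endothelial cells was not tested.

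In the cerebellum no member passed the threshold either. Egr3 and Npas4 had the highest values relative to wild type, Egr1 and Ier5 the lowest, and Egr4, Arc, Ier2 and Btg2 were near 0. Egr2 had too few counts for the filter and was not tested. None of the 8 tested members had an adjusted p under 0.05, while 2 of 17733 genes did (0.0113%). At an unadjusted p under 0.05 there were 3 of 8, Ier5, Npas4 and Egr3, against 6.77% of all genes. DESeq2 and limma-voom called 0 members, while edgeR without a filter on low counts called 3, as given at the end.

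Of the 8 tested members only Ier5 had groups that did not overlap. That share is close to the 12.1% of all genes that did not overlap, 6.24% in the lower direction. It had 19.7, 18.6 and 18.4 CPM in knockout cerebellum and 22.9, 20.6 and 24.4 CPM in wild-type cerebellum, so each knockout library was below each wild-type one. The log2 fold change was -0.25 ± 0.08, or 0.839 of the wild-type level (interval 0.742 to 0.948, unadjusted p = 0.00926 in edgeR's quasi-likelihood test, adjusted p = 0.644). It kept between -0.32 and -0.19 when single libraries were left out. Npas4 averaged 5.27 ± 0.97 CPM in knockout and 3.08 ± 1.52 CPM in wild-type cerebellum (SD, n = 3 each). Its log2 fold change was 0.77 ± 0.29 (unadjusted p = 0.0223 in edgeR's quasi-likelihood test, adjusted p = 0.691), and 2 of the 3 knockout libraries lay below the highest wild-type library.

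Egr3 was scarce in the cerebellum and uneven among knockout libraries. It had 40, 12 and 50 counts in knockout cerebellum and 16, 20 and 13 counts in wild-type cerebellum, so that 2 knockout libraries lay above all wild-type ones and the other was the lowest of its tissue by count. The log2 fold change was 1.18 ± 0.46 (unadjusted p = 0.0281 in edgeR's quasi-likelihood test, adjusted p = 0.704). Egr2 had 15 counts over the knockout libraries and 2 over the wild-type libraries, a ratio of 8.20 with a 95% exact interval of 1.91 to 73.9 that covers counting error only. Of the 15 knockout counts, 9 came from 1 library. Egr1 averaged 41.9 ± 9.52 CPM in knockout and 50.8 ± 14.8 CPM in wild-type cerebellum, a log2 fold change of -0.27 ± 0.19. That of Egr1 was -0.0018 without the third wild-type library and -0.47 without the third knockout library, and it was -0.05 with a score of brainstem markers and -0.57 with a score of choroid plexus markers as a covariate. Egr4 at 0.15 ± 0.13, Ier2 at 0.11 ± 0.16, Btg2 at 0.07 ± 0.11 and Arc at -0.04 ± 0.09 had intervals that included 0, and that of Arc ran from -0.24 to 0.16. The median over the 8 tested members was 0.090, with 5 above 0, against 0.0025 and 51% above 0 over all genes.

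Markers of neighbouring tissue varied between the cerebellum libraries. The 8 choroid plexus markers, all detected, summed to 976, 1789 and 26.8 CPM in knockout libraries and 1964, 2712 and 1063 CPM in wild-type libraries, with a median log2 fold change of -1.08. The 11 brainstem markers, all detected, summed to 70.8, 91.4 and 52.1 CPM in knockout libraries and 57.0, 60.6 and 54.0 CPM in wild-type libraries, and 5 of the 6 that could be tested had values above 0 (median log2 fold change 2.59). The 9 microglial markers summed to 149 to 161 CPM in knockout and 130 to 137 CPM in wild-type libraries, and their part was not tested. With either score as a covariate no member was called. Egr4, Ier2 and Btg2 turned from just above to just below 0 with the choroid plexus score, and Arc turned to just above 0 with the brainstem score.

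The knockout effect itself did not differ between the tissues for any member at an adjusted p under 0.05. The fit held all 12 libraries without pairing the tissues of an animal, and 0.0105% of 19027 genes were called in it. At an unadjusted p under 0.05 there was 1 of 9, against 5.34% of all genes. That member was Egr3, whose difference, hippocampus minus cerebellum, was -1.18 ± 0.39 on the log2 scale (unadjusted p = 0.00841 in edgeR's quasi-likelihood test, adjusted p = 0.888). Without the second knockout cerebellum library, the one with 12 counts, it was -1.59 and passed the test (adjusted p = 0.0133). Egr1 had a difference of 0.55 ± 0.29 (adjusted p = 0.927). Arc had a difference of 0.45 ± 0.28 and Npas4 one of -0.69 ± 0.52, with 95% intervals that included 0 (-0.15 to 1.05 for Arc and -1.81 to 0.42 for Npas4).

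**Figure D3:**
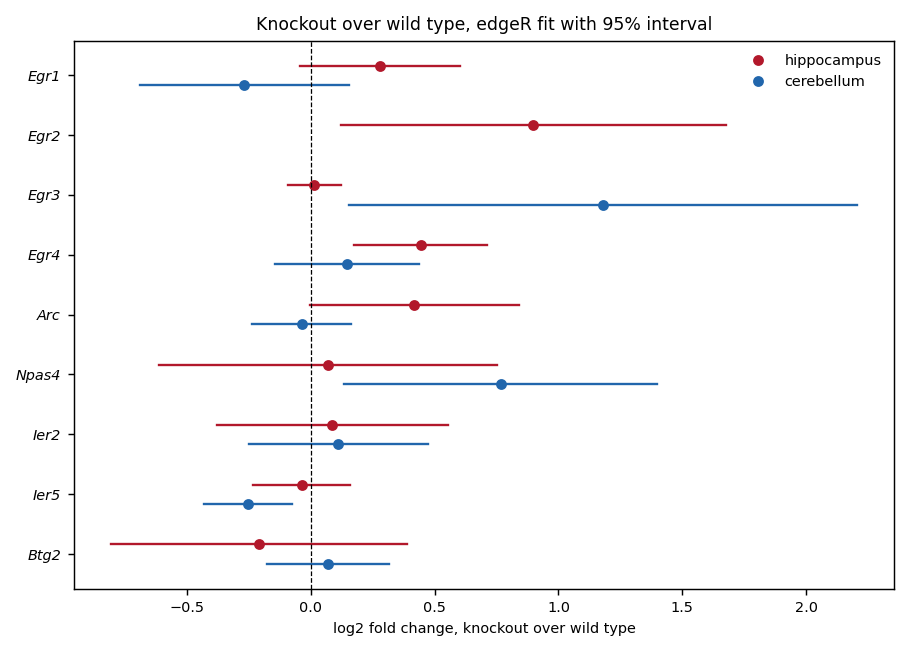
Log2 fold change of knockout over wild type for each gene in hippocampus and in cerebellum, with 95% intervals of the edgeR fit. Egr2 was not tested in the cerebellum. No value passed an adjusted p of 0.05, the interval of Egr3 is narrow in hippocampus (-0.09 to 0.12) and wide in cerebellum, and the widest hippocampal interval that leaves out 0 is that of Egr2.

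Animals of the same genotype differed in these genes in a shared way. Library 3 had the highest level of its group for 9 of 9 members in knockout hippocampus and 9 of 9 in wild-type hippocampus. In the cerebellum it was highest for 6 of 9 in knockout and 7 of 9 in wild-type mice. Over all genes tested, library 3 was the highest of its group for 36.1%, 34.4%, 36.9% and 33.5% in those 4 groups. The replicate numbers of the 2 genotypes denote different animals, so the shared number 3 has no stated meaning across genotypes.

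The deviations were larger for some members than for others. In wild-type hippocampus, library 3 stood above the other two by a factor of 2.697 for Egr2, 2.54 for Npas4 and 2.37 for Btg2, but only 1.53 for Arc, 1.41 for Egr1, 1.10 for Ier5 and 1.06 for Egr3. In knockout hippocampus the factors were 1.76 for Egr2, 1.59 for Arc, 1.41 for Npas4, 1.34 for Egr1 and Btg2, and 1.07 for Egr3. Averaged over the 8 members tested in both tissues, library 3 lay 0.27 above its group mean on the log2 scale in knockout hippocampus and 0.43 in wild-type hippocampus, and 0.18 and 0.24 in the cerebellum of those mice. The same animal was highest in both tissues for 6 of 9 members in knockout mice, against 33.9% of all genes. In wild-type mice it was so for 7 of 9, against 35.4% of all genes. Since library 3 was highest for all 9 members in hippocampus, these counts repeat those of library 3 in the cerebellum. In the third animals the choroid plexus sum of the cerebellum was the lowest of each genotype, at 26.8 and 1063 CPM, and the meningeal sum of the hippocampus was the lowest too, at 78.9 and 91.1 CPM. The part of such tissue in the pattern was not tested.

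**Figure D4:**
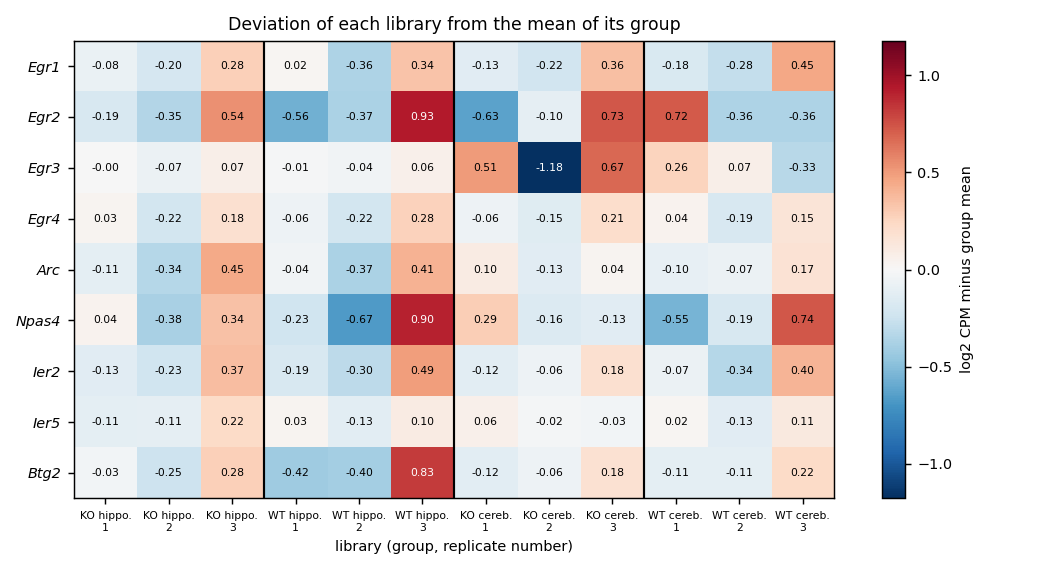
Deviation of each library from the mean of its group (log2 CPM with a prior count of 2) for the 9 genes, in red where higher and blue where lower. All 9 rows are positive in the third hippocampus library of both genotypes, while Egr3 in the second knockout cerebellum library has the lowest value, -1.18.

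Genes were ranked by how closely they followed the mean profile of the members over the 12 libraries, each gene centred on the mean of its tissue. The profile rested on the 8 members tested in both tissues, and 14311 other genes averaging at least 1 CPM in both tissues were compared. The highest Pearson correlations belonged to Dusp1 (0.926), a phosphatase that switches off MAP kinases and is itself an immediate early gene, and to Fos (0.907), the AP-1 transcription factor. Gm38057 (0.906), Zfp110 (0.897), Hmgb3 (0.884), Stradb (0.882), Mex3b (0.877) and Cbx8 (0.877) followed, where the gene of rank 100 had 0.737. The 12 points share 6 animals, the library preparation and the scaling, so these values describe likeness in these libraries.

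The members themselves followed their shared profile unequally. Against the mean of the other members over 12 libraries the correlation was 0.879 for Ier2, 0.792 for Arc, 0.789 for Egr4, 0.732 for Btg2, 0.726 for Npas4, 0.661 for Egr1 and 0.628 for Egr2, and it was 0.253 for Ier5 and 0.158 for Egr3. Within the 6 hippocampus libraries it was 0.674 to 0.970 for all 9 members. Within the 6 cerebellum libraries it ran from -0.222 for Ier5 to 0.850 for Egr4.

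Other activity genes, in lists named for their known kinetics, gave few calls between genotypes as well. Of the 10 AP-1 and Nr4a genes, none passed in the hippocampus (median log2 fold change 0.14). The smallest p there belonged to Nr4a1, a nuclear receptor, with 95.7 ± 16.7 CPM in knockout and 72.9 ± 11.2 CPM in wild-type hippocampus (log2 fold change 0.41 ± 0.12, adjusted p = 0.995). In the cerebellum 1 of the 10 passed: Fosl2, an AP-1 subunit, was higher at 18.7 ± 1.42 CPM in knockout against 8.51 ± 0.54 CPM in wild-type mice (SD, n = 3 each). Its log2 fold change was 1.15 ± 0.09 (adjusted p = 0.00157), and its knockout effect differed between the tissues (hippocampus minus cerebellum -1.05 ± 0.10, adjusted p = 3.71e-04). The median of the 10 in the cerebellum was 0.61, with 8 above 0, against 51% of all genes. At an unadjusted p under 0.05 in edgeR's quasi-likelihood test there were 5 of the 10, against 6.77% of all genes. In the hippocampus 9 were above 0 and 2 had an unadjusted p under 0.05, against 50.8% and 4.34% of all genes.

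Of 20 other rapid activity genes none passed in either tissue, with medians of 0.13 in hippocampus and 0.22 in cerebellum. In hippocampus 14 of the 20 were above 0 and 3 had an unadjusted p under 0.05 in edgeR's quasi-likelihood test. In cerebellum these counts were 17 and 6. Per1, a clock gene that activity also induces, had the smallest p in hippocampus, at 105 ± 4.22 CPM in knockout and 85.7 ± 6.15 CPM in wild-type mice (log2 fold change 0.30 ± 0.06, adjusted p = 0.792). Of 15 late activity genes none passed either, with medians of 0.016 in hippocampus and 0.16 in cerebellum. The counts were 8 above 0 and 2 at an unadjusted p under 0.05 in hippocampus, and 14 and 3 in cerebellum. Bdnf, the neurotrophin, had the smallest p among them in the cerebellum, with 22.6 ± 1.76 CPM in knockout and 16.6 ± 1.55 CPM in wild-type mice (log2 fold change 0.46 ± 0.09, adjusted p = 0.339). In the hippocampus it was Tiparp, with 25.9 ± 2.66 CPM in knockout and 19.8 ± 1.51 CPM in wild-type mice (0.40 ± 0.09, adjusted p = 0.995). Ptgs2, with the next smallest p there, was lower in knockout mice. It had 25.3 ± 2.27 CPM in knockout and 30.0 ± 2.20 CPM in wild-type hippocampus (-0.23 ± 0.08).

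The partners of the members did not pass the test in either tissue. Nab2, a co-repressor that Egr proteins induce and bind, had 35.7 ± 1.21 CPM in knockout and 31.7 ± 2.38 CPM in wild-type hippocampus (0.18 ± 0.07, adjusted p = 0.995). Nab1 had 66.7 ± 3.72 CPM in knockout and 60.0 ± 3.51 CPM in wild-type cerebellum (0.16 ± 0.06, adjusted p = 0.706). Arnt and Arnt2, which pair with Npas4, had log2 fold changes between -0.06 and 0.09 in both tissues. None of 4 Btg and Tob relatives of Btg2, of 10 CCR4-NOT subunits and of 20 upstream kinases and factors passed. Srf, the factor of the CArG box, had 66.4 ± 3.41 CPM in knockout and 60.9 ± 0.81 CPM in wild-type hippocampus (0.14 ± 0.05, adjusted p = 0.995). Camk4 was lower there in knockout mice, with a log2 fold change of -0.12 ± 0.05. In the cerebellum the 2 upstream genes with the smallest p were both lower, Crtc1 at -0.16 ± 0.07 and Mrtfa at -0.13 ± 0.07. Of the 20 upstream genes, 11 were above 0 in hippocampus and 8 in cerebellum.

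Between the tissues 64.1% of all genes tested were called in knockout mice and 66.1% in wild-type mice. In knockout mice, 7 of the 10 AP-1 and Nr4a genes were higher and 3 lower in hippocampus, as were 10 of 15 late activity genes with none lower, while 6 of the 20 other rapid genes were higher and 8 lower. In wild-type mice the counts were 7 higher and 3 lower of 10, 11 higher and none lower of 15, and 6 higher and 5 lower of 20. Camk2a, the kinase of excitatory synapses, had 4234 ± 182 CPM in hippocampus and 105 ± 13.7 CPM in cerebellum of knockout mice, and Camk4 ran the other way with 191.7 ± 8.96 CPM in hippocampus and 891 ± 94.5 CPM in cerebellum. Of the 4 relatives of Btg2, 3 were called lower and 1 higher in hippocampus in each genotype. Btg1 and Tob2 were lower, with log2 fold changes of -2.22 and -1.23 in knockout mice and -2.15 and -1.29 in wild-type mice. Btg3 was higher, with log2 fold changes of 1.76 in knockout mice and 1.83 in wild-type mice. Arnt2 was higher in hippocampus, by 1.47 on the log2 scale in knockout mice, and Arnt was lower, with log2 fold changes of -0.63 in knockout and -0.77 in wild-type mice.

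**Figure D5:**
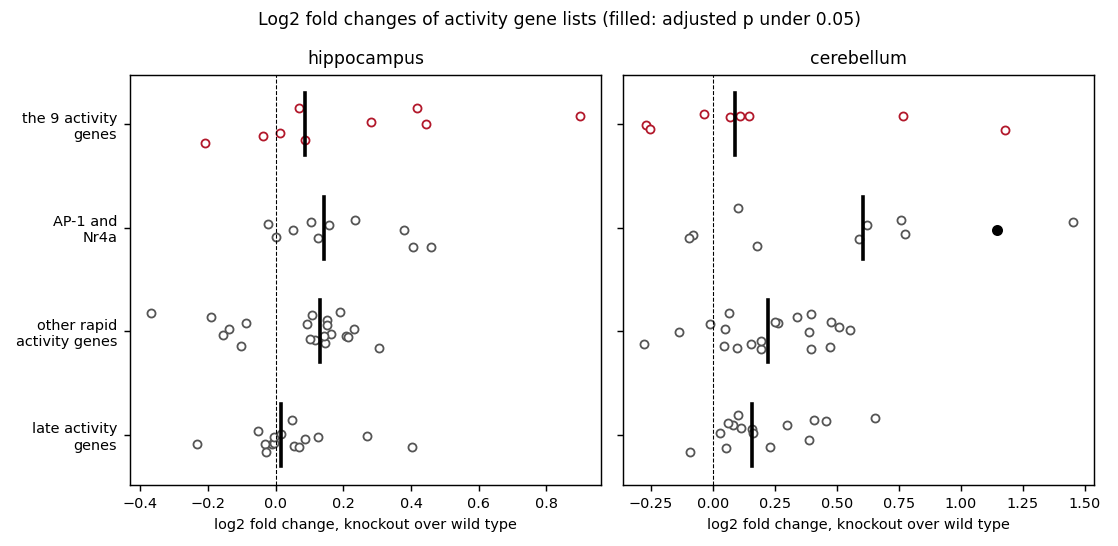
Log2 fold change of knockout over wild type for the 9 genes and for 3 lists of related activity genes, in hippocampus and in cerebellum, with black bars at the medians. Points are genes, and the 1 filled point that passed an adjusted p of 0.05 is Fosl2 in the cerebellum at 1.15. The horizontal axes differ between the panels.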

How the data were processed

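The authors deposited raw counts, with a table for each tissue. Per the submitters' processing notes, the tools were featureCounts 2.0.3, STAR 2.7.10 and Trimmomatic 0.39, and the builds GRCm38 and mm10 are named there, while the labels' protocols describe poly(A) selection with strand-marked (dUTP) libraries. Whether the counting used the strand is not stated there. Of 54446 identifiers, 54409 matched GENCODE M21, which gave symbols, positions and exon lengths. No pair of libraries of a group was identical (chi-square per gene 4.11 to 12.7).

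Tests were made with edgeR 4.0.16 (R 4.3.3), after filterByExpr with a minimum count of 10 and a minimum total of 15, on TMM factors, by the two-sided quasi-likelihood test with Benjamini-Hochberg adjusted p over all genes and a threshold of 0.05. Each tissue was fitted on its own table, each genotype's tissues on 6 libraries and the difference on all 12. The reported fits held no block for the animal. Means carry the SD, and log2 fold changes the SE. Common biological variation (BCV) came to 7.54% in hippocampus and 8.23% in cerebellum. Alternatives used DESeq2 1.42.0, limma-voom in limma 3.58.1, other scalings, no filter, left-out libraries, blocks and marker scores. Tables and figures were made with Python 3.11.15, pandas 2.3.3, numpy 2.4.6 and matplotlib 3.10.9.

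Tissues of 1 animal are paired by the animal numbers in the labels. Same-animal deviations from group means correlated across genes at 0.0075, 0.0480 and 0.0621 in knockout and 0.0614, 0.0626 and 0.0939 in wild-type mice. Replicates are taken as separate animals. The members and gene lists were chosen with earlier results of these data known. All members are named, with Syt14 as the label check. From each list the rule names up to 3 genes past the threshold or else up to 2 with the smallest p, of which the text gives some, and for likeness the 8 most correlated genes.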

Additional observations from a re-analysis of the deposited data

How the results depend on the processing

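The tissue calls held in each of the alternatives run: 8 of 9 members in knockout mice, and 8 to 9 in wild-type mice, where leaving out the third wild-type hippocampus library added Btg2 and reversed it to -0.38. Over all comparisons, 599 of the alternative values of single members kept their direction and side of the threshold, 31 reversed, and 12 others kept their direction and passed the threshold where the reported value did not. Without a filter on low counts, edgeR called 4 members in hippocampus (Arc, Egr4, Egr1 and Egr2), 3 in cerebellum (Npas4, Egr1 and Egr3) and 3 for the difference (Egr1, Arc and Egr3), and 77, 417 and 275 genes in all, at log2 fold changes close to those reported. The cause was not tested. Over all genes the reported calls numbered 0 in hippocampus, 2 in cerebellum and 2 for the difference, against 2, 36 and 9 with DESeq2. In cerebellum they numbered 31 with the brainstem score, 37 with the choroid plexus score and 33 without the third knockout library, which also took the difference to 44. With single libraries left out, 0 of the members were called between genotypes in each tissue and 0 to 1 for the difference.

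The labels do not say that a replicate number pairs a knockout with a wild-type animal. Same-numbered deviations correlated at -0.0029, 0.0048 and 0.0534 in hippocampus, where unlike numbers gave -0.0402 to 0.0364. In cerebellum they correlated at 0.0949, 0.175 and 0.280, against -0.265 to 0.0921 for unlike numbers. Every cerebellum library thus correlated best with its own number. The deviations of a group sum to 0 by construction, so values for like and unlike numbers are not independent. Whether the number stands for a shared factor was not tested. With the number as a block 1 member was called in hippocampus, Arc (0.41, adjusted p = 0.0174), of 2 genes in all, and 0 in cerebellum, of 36 genes. The animal block changed no call of a member.

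With single libraries left out, the median of the 8 members tested in both tissues ran from -0.071 to 0.42 in hippocampus, where the third wild-type library gave the highest value. Left-out libraries reversed members whose reported log2 fold changes lay between -0.28 and 0.16, but several of their ranges were wide. In hippocampus Egr3 ran from -0.022 to 0.044, Npas4 from -0.22 to 0.67, Ier2 from -0.12 to 0.38, Ier5 from -0.16 to 0.017 and Btg2 from -0.43 to 0.33. In cerebellum Arc ran from -0.087 to 0.055, Ier2 from -0.051 to 0.35 and Btg2 from -0.024 to 0.19. For the difference Ier2 ran from -0.26 to 0.27 and Btg2 from -0.50 to 0.26. Between wild-type tissues Btg2 ran from -0.38, where it was called, to 0.38. The meningeal score reversed Egr3 (-0.0040), Npas4 (-0.30) and Ier2 (-0.047) in hippocampus. The choroid plexus score reversed Egr4 (-0.016), Ier2 (-0.054) and Btg2 (-0.066) in cerebellum, and the brainstem score Arc (0.00086). Scaling by library totals moved the median of all genes between tissues to -0.16, from -0.025 in knockout and -0.022 in wild-type mice, and the share of higher calls to 38.1% and 38.9%, against 49.3% and 50.1%. No member changed its call or direction under it. Depth limits Egr2 and Egr3 in the cerebellum, and 3 animals a group limit all genotype values.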
